A study of Homo sapiens with 4 samples.

Results

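The genes described here are ZHX2, its paralogs ZHX1 and ZHX3, and NFYA, NFYB and NFYC, which encode the subunits of the CCAAT-binding factor NF-Y. Every peak whose gene name in the authors' deposited table equals 1 of these 6 symbols was taken, which gave 5 of the 8871 listed peaks. ZHX2, ZHX1, NFYA, NFYB and NFYC had 1 peak each, and ZHX3 had none. The peaks come from ChIP-seq, in which an anti-ZHX2 antibody pulls down fixed chromatin and the bound DNA is sequenced. The cells were DB, a human line established from a B-cell lymphoma. Those labelled ZHX2 were compared with those labelled ZHX2_Mut4 (Mut4 below), with 1 ChIP library and 1 input library per arm. The labels do not describe the residues altered in Mut4, how either protein was introduced, whether the cells were a clone or a pool, or whether endogenous ZHX2 remained, which the antibody would also bind. With 1 ChIP library per arm the spread between cultures is unknown, so the intervals below cover counting error of reads and no difference between the arms was tested.

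ZHX proteins carry zinc fingers and several homeodomains and can form homodimers and heterodimers with each other. They act mostly as transcriptional repressors and were described as binding the NF-YA subunit. NF-Y is a trimer: NF-YB and NF-YC pair through histone folds, and NF-YA joins the pair and reads the CCAAT box, a promoter element found upstream of many cell cycle, lipid synthesis and MHC class II genes. ZHX2 in mouse liver lowers the fetal genes Afp and H19 after birth, and in human kidney cancer it is a substrate of the VHL ubiquitin ligase.

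Promoter sequence shows how the peaks of NFYC and NFYA sit relative to the CCAAT box. RefSeq windows on GRCh38.p14 ran from 250 bases before to 50 after a transcription start. They were at hand for 3 of the 6 genes: NFYA with 1 start, NFYC with 3 and ZHX3 with 2. Windows of ZHX2, ZHX1 and NFYB were missing from the reference used, so the CCAAT boxes at their peaks were not examined. The upstream part of 4 windows is shown, 5′ to 3′ on the gene's strand, with each CCAAT in capitals (its reverse complement ATTGG was searched too and would also be capitalised). The first NFYC window lies at the NFYC peak, the other shows an NFYC start with no peak, the NFYA window lies between a pair of peaks, and the ZHX3 window belongs to the gene without a peak.
NFYC, first start, chr1:40691454-40691703, plus strand: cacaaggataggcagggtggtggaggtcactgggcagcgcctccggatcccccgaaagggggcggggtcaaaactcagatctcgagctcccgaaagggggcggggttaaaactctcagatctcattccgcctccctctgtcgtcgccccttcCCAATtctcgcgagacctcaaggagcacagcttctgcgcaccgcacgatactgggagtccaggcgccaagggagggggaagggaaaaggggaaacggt
NFYC, second start, chr1:40709116-40709365, plus strand: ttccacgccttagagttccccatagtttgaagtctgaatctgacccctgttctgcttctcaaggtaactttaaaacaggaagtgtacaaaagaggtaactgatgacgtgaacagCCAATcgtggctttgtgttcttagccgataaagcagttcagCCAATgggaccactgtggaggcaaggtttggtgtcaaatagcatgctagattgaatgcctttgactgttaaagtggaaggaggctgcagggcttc
NFYA, chr6:41072724-41072973, plus strand: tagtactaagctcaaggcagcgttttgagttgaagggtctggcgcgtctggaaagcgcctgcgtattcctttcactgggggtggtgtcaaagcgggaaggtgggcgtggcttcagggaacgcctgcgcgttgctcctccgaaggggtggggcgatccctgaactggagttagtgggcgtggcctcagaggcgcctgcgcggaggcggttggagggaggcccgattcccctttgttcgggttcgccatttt
ZHX3, outer start, chr20:41317732-41317981, minus strand: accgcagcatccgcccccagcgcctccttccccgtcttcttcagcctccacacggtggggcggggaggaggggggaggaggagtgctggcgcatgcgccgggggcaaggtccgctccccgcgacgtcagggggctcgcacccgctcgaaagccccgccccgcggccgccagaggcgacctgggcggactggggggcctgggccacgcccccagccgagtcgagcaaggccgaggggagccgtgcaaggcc

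ZHX2 itself carried by far the strongest of the 5 peaks, and its signal was 2.14-fold higher in the ZHX2 arm than in Mut4 under the authors' scaling. NFYB was 1.98-fold higher with few reads, NFYC and ZHX1 had folds above 1 whose intervals included 1, and NFYA had a fold near 1. Judged by sign alone, 4 of the 5 member peaks were higher in the ZHX2 arm, beside 50.4% of all listed peaks. The counting interval lay above 1 at 2 of the 5, ZHX2 and NFYB, beside 11.0% of all listed peaks, and below 1 at none, beside 11.0%. All 5 were marked as unique to the ZHX2 arm, as were 95.5% of all listed peaks. If that mark means a peak called in the ZHX2 arm only, these peaks are listed through that arm. Such a listing can favour folds above 1, most of all at peaks with few reads, and its part was not tested. All 5 were also classed as promoter, and 54.5% of all listed peaks share both traits. The 5 lay 588 bp or less from an annotated transcription start, beside 69.0% of listed peaks within 600 bp.

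Whole numbers of reads were solved for at every peak from its deposited fold and CPM. Over all listed peaks they summed to 541900 in the ZHX2 library and 271694 in the Mut4 library, and the authors' scaling divides each ratio of reads by 2.14. A peak had a median of 45 reads in the ZHX2 library and 22 in Mut4. Depth beyond these peaks is unknown, and the 2 libraries of input DNA were not used. All folds are ZHX2 over Mut4 and scaled by the authors' sizes unless another scaling is named, with exact 95% intervals. Of the B cell genes fixed as a list 6 of 8 had a peak, with a median log2 fold of 0.043, and of the T cell genes 3 of 8, with a median of 3.78, beside 28.7% of all RefSeq coding genes with a peak. The T cell genes CD28, with 346 reads in the ZHX2 library and 1 in Mut4 (a ratio of 162, 28.8 to 6400), and CD8A, with 385 and 13 (13.8, 7.99 to 26.2), differed more than any member. Neither was a promoter peak: that of CD28 was at a transcript end, 28435 bp from the annotated start, and that of CD8A was intronic, at 1888 bp. LCK, the third, had a promoter peak and stood at 1.03 (0.652 to 1.68). The part of this difference in the members' folds was not tested. Expression was not measured, so the labelled cell type could not be checked against its markers.

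The ZHX2 peak (ENSG00000178764) covered 122780196 to 122783207 on chromosome 8 of hg38. Its centre lay 46 bp from the start that the deposited annotation used. It held 482 reads in the ZHX2 library and 105 in the Mut4 library. The first number is above that of 99.7% of listed peaks and the second above that of 98.7%, so the site stood high in both arms. As CPM (counts scaled to a common total of reads in listed peaks), the levels were 858 (783 to 939) in the ZHX2 arm and 400 (328 to 485) in Mut4, and these intervals did not overlap. The fold was 2.14 (1.73 to 2.67). The authors' deposited table gives a log2 fold of 1.10 and an adjusted p of 0.000732, a p that sets 1 library against 1 library, and 2.53% of all listed peaks were higher with an adjusted p under 0.05.

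At 3011 bp this peak was longer than 98.3% of listed peaks, whose median length was 950 bp. By mean signal it ranked 33 in the whole table. By deposited log2 fold it ranked 591. On chromosome 8 none of the 315 listed peaks held more reads in the ZHX2 library, while 18 had a larger deposited log2 fold. Peaks of like depth leaned toward the ZHX2 arm too. Among the 66 peaks whose summed reads were within 1.5-fold of its 587, the median log2 fold was 0.62 (quartiles -0.16 and 1.09), 59.1% had an interval above 1, and 16 had a larger log2 fold than ZHX2. The part of depth in the fold at ZHX2 was not tested.

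The mark of a peak as unique to the ZHX2 arm did not mean that Mut4 reads were missing. The ZHX2 peak had more Mut4 reads than 165 of the 185 peaks marked as common to both arms, whose median was 61 reads. Per kilobase the order was different: it had 34.9 Mut4 reads per kb, and 26 of the 185 common peaks had fewer, with a median of 48.4 per kb. The other members had 12 to 34 Mut4 reads.

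Annotation around the ZHX2 start limits the assignment. By RefSeq on GRCh38.p14 the gene spans 122780379 to 122974510, and its start lies near the lower edge of the peak. The start 46 bp from the peak's centre is thus a different one. The antisense transcript ZHX2-AS1 spans 122777884 to 122781604, which takes in 46.8% of the peak. Chromatin fragments carry no strand, so the signal cannot be divided between the pair. No other listed peak lay over the 194132 bp of the gene, and the nearest ones beyond it were at DERL1, 67.4 kb past the gene's end with a fold of 0.651 (0.407 to 1.05), and at SNTB1, 1968 kb before its start.

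**Figure D1:**
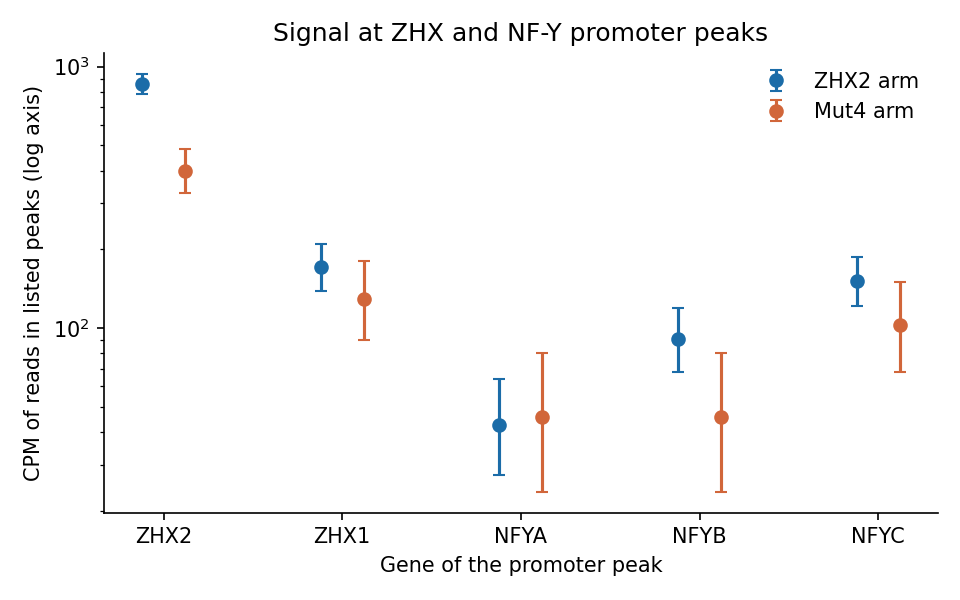
CPM by the authors' library sizes (log axis) at the 5 promoter peaks in the ZHX2 library (blue) and the Mut4 library (orange), with exact 95% Poisson intervals for counting error. The ZHX2 peak stands at 858 and 400 with separate intervals, and the intervals of both arms overlap at the other 4 peaks.

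ZHX1 (ENSG00000165156), the paralog that lies on the same arm of chromosome 8, had a peak of 1136 bp at 123273528 to 123274664, centred -99 bp from the annotated start. It held 96 reads in the ZHX2 library and 34 in Mut4, or 171 (138 to 209) and 130 (89.8 to 181) CPM. The fold was 1.32 (0.883 to 2.01), and the authors' deposited table gave an adjusted p of 0.724. Its mean signal was above that of 84.3% of listed peaks. By RefSeq ZHX1 spans 123248456 to 123275541, and no listed peak covers either end. The annotated start under the peak thus lies inside that span. Part of the peak, 66.7%, also lies in the RefSeq read-through gene ZHX1-C8orf76, whose higher coordinate, 123274286, is inside the peak. A separate promoter peak of C8orf76, 31.6 kb away and also inside that read-through gene, held 40 and 20 reads and had a fold of 0.934 (0.533 to 1.69). The long noncoding gene AC068228.4, within 100 kb of ZHX1, had a promoter peak with a fold of 1.08 (0.648 to 1.84) and an intronic peak with 0.629 (0.368 to 1.09).

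The ZHX1 peak was 1 of 20 other peaks within 2.5 Mb of the ZHX2 peak. Together these 20 held 1591 reads in the ZHX2 library and 727 in Mut4, a fold of 1.02 (0.936 to 1.12). Of them 9 had a log2 fold above 0 and 11 below, from -1.24 to 0.97, and none was above the 1.10 of ZHX2. The nearest in fold was FBXO32, a ubiquitin ligase gene, with 63 and 15 reads and a fold of 1.96 (1.10 to 3.71). TBC1D31, closer to ZHX2, had 73 reads against 64 and a fold of 0.533 (0.376 to 0.757). Set against its 20 neighbours, a ratio that no scaling of the libraries can move, the ZHX2 peak was 2.10-fold higher (1.66 to 2.66) in the ZHX2 arm.

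**Figure D2:**
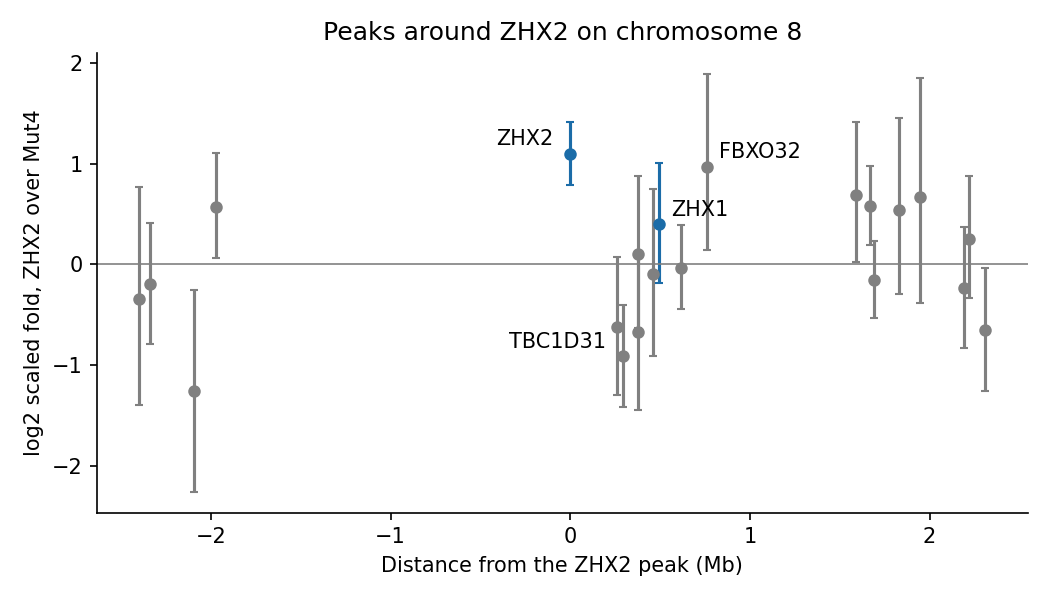
log2 scaled fold (ZHX2 over Mut4, exact 95% counting intervals) of listed peaks against distance from the ZHX2 peak in Mb on chromosome 8, with ZHX2 and ZHX1 in blue. ZHX2 stands highest of the 21 peaks at 1.10, with 9 of the other 20 above 0 and 11 below.

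ZHX3, the remaining paralog, had no listed peak over its 139277 bp on chromosome 20 (41178455 to 41317731). The nearest listed peak, at the promoter of the phospholipase gene PLCG1, was 40.5 kb beyond the 3′ end of ZHX3 and 180 kb from its outer start. That peak held 58 and 44 reads and had a fold of 0.616 (0.409 to 0.933). On the other side the nearest peak was at CHD6, 300 kb away. The table lists only called peaks, so the reads at ZHX3 are unknown and no limit on its signal can be given. Its outer start, shown above, is rich in GC (76.4% of the 250 bases, with 27 CpG) and holds 4 GGGCGG boxes, the GC box read by SP factors, on either strand and with none overlapping a CCAAT. It has no CCAAT or ATTGG.

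Of the NF-Y genes NFYC (ENSG00000066136), which encodes a histone-fold subunit, had the most signal. Its 759 bp peak at 40691502 to 40692261 on chromosome 1, centred 43 bp from the annotated start, held 85 reads in the ZHX2 library and 27 in Mut4. These are 151 (121 to 187) and 103 (67.9 to 150) CPM, and the intervals overlapped. The fold was 1.47 (0.944 to 2.36), and the authors' deposited table gave an adjusted p of 0.562. The whole peak also lies inside the antisense gene NFYC-AS1 of RefSeq, whose higher coordinate, 40692261, is the deposited end of the peak.

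The peak overlapped 252 bases of the first NFYC window, and the CCAAT shown in that window, 98 to 94 bases before the start, lay under it, as did a pair of GGGCGG boxes. All 3 NFYC windows hold a CCAAT. The second start, with 2 upstream, is 17.1 kb from the peak, and the third is 46.6 kb from it, and neither has a listed peak. Those windows are poorer in GC, at 46.0% and 29.6% against 62.0% in the first, with 4 and 1 CpG against 17.

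NFYB (ENSG00000120837), the other histone-fold subunit, had a peak of 911 bp on chromosome 12, 104137506 to 104138417, centred 56 bp from the annotated start. It held 51 reads in the ZHX2 library and 12 in Mut4, or 90.8 (67.6 to 119) and 45.8 (23.6 to 79.9) CPM. The fold of 1.98 (1.04 to 4.09) was close to that of ZHX2, but its interval reached nearly to 1 and the intervals of the levels overlapped. The authors' deposited table gave it an adjusted p of 0.314. In Mut4 reads NFYB stood low, above 17.5% of listed peaks, while in ZHX2 reads it was above 58.5%. Among the 4617 peaks of like depth 7.54% had an interval above 1, and 311 had a larger log2 fold. Its neighbour within 100 kb, the HCFC2 promoter, held 48 and 27 reads, a fold of 0.830 (0.508 to 1.38).

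NFYA (ENSG00000001167), which encodes the subunit that reads CCAAT, had the weakest peak, 586 bp at 41073278 to 41073864 on chromosome 6. Its centre lay 588 bp from the nearest annotated start, and the peak was shorter than most, with 5.55% of listed peaks below it in length. It held 24 reads in the ZHX2 library and 12 in Mut4, or 42.7 (27.4 to 63.6) and 45.8 (23.6 to 79.9) CPM. The fold was 0.934 (0.449 to 2.05), and the authors' deposited table gave an adjusted p of 1. The interval spans 2-fold in either direction, so a difference of that size was not detectable at this depth.

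The NFYA start itself was under no listed peak. It fell in a gap of 716 bp between the NFYA peak, which begins 304 bp past the RefSeq start, and a peak of the divergent gene OARD1, which ends 412 bp before it. The OARD1 peak held 32 reads in the ZHX2 library and 28 in Mut4, a fold of 0.534 (0.311 to 0.920), and its interval lay below 1. By RefSeq, transcripts of OARD1 span the NFYA peak as well, so the signal of these peaks cannot be assigned to a single gene. The next peak, in an exon of UNC5CL 44.5 kb from the NFYA peak, had a fold of 1.12 (0.598 to 2.20). The NFYA window, shown above, has no CCAAT in its upstream part and 1 in reverse, ATTGG, 46 to 50 bases after the start, outside both peaks.

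**Figure D3:**
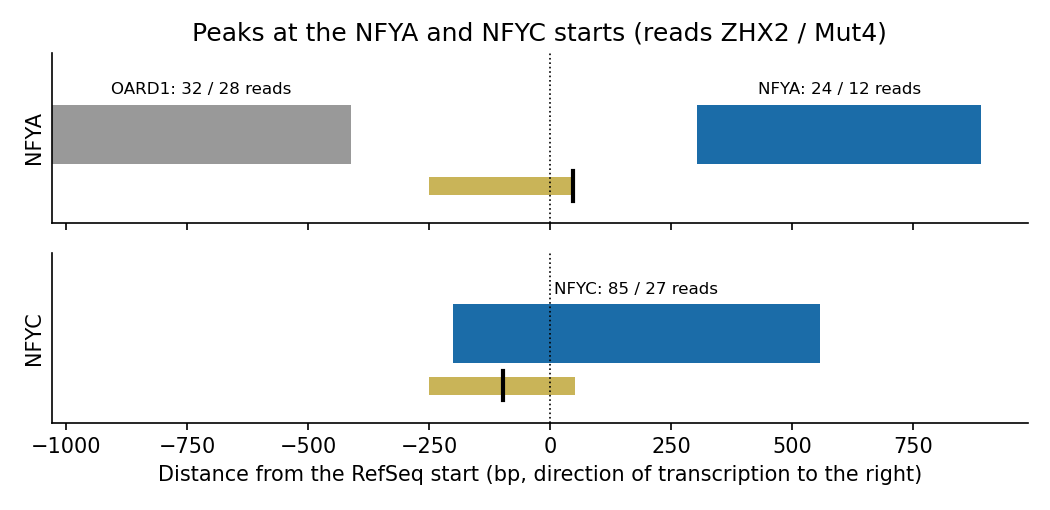
Listed peaks at the RefSeq starts of NFYA (upper panel) and NFYC (lower panel) by distance from the start in bp, with each peak's reads in the ZHX2 and Mut4 libraries. The thin bar is the promoter window and the black tick a CCAAT on either strand. The NFYC start and its CCAAT lie under the peak, and the NFYA start lies between the OARD1 peak (32 and 28 reads) and the NFYA peak (24 and 12 reads).

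A CCAAT or ATTGG was common in promoter windows, with or without a peak. It occurred in the upstream part of 32.0% of all 35116 RefSeq windows, in 30.3% of the 7399 that overlap a listed peak and in 32.5% of the others. GGGCGG, counted the same way with CCGCCC, was in 42.6% of all windows, 72.7% of those that overlap a listed peak and 34.6% of the others. Over genes with a promoter peak on their window, the median log2 fold was -0.027 for 1178 genes with a CCAAT upstream and -0.0054 for 2055 without. These are matches of letters in windows of unlike base composition. The median GC share of the upstream part was 68.0% in windows that overlap a listed peak and 54.8% in the others, and it was 55.6% in windows with a CCAAT and 59.6% in those without.

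Per kilobase of peak the order of the members was the same in both arms but for ZHX2 with NFYC and NFYB with NFYA. Neither change of place exceeded counting error. The ratio of folds was 1.46 (0.864 to 2.40) for ZHX2 over NFYC and 0.474 (0.167 to 1.34) for NFYA over NFYB. In the ZHX2 library ZHX2 led with 160 reads per kb (146 to 175), followed by NFYC at 112 (89.5 to 138), ZHX1 at 84.5 (68.5 to 103), NFYB at 56.0 (41.7 to 73.6) and NFYA at 41.0 (26.2 to 60.9). The median over all listed peaks was 44.4. The steps from ZHX2 to NFYC, a ratio of 1.43 (1.13 to 1.82), and from ZHX1 to NFYB, 1.51 (1.06 to 2.16), exceeded counting error, and those from NFYC to ZHX1 and from NFYB to NFYA did not.

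In the Mut4 library NFYC and ZHX2 were nearly level, at 35.6 (23.4 to 51.8) and 34.9 (28.5 to 42.2) reads per kb. ZHX1 followed at 29.9, NFYA at 20.5 and NFYB at 13.2, beside a median of 21.3 over all listed peaks. No step between neighbours in this order exceeded counting error. The fewer reads of this library widen each interval.

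Whether the members' folds differed from each other can be asked without any scaling, since the library sizes cancel. Over the 10 pairs of peaks the interval of the ratio of folds excluded 1 in 2, both just so and with no adjustment for the number of pairs. The fold at ZHX2 was 1.62 times that at ZHX1 (1.01 to 2.58) and 2.29 times that at NFYA (1.01 to 4.95). It was 1.08 times that at NFYB (0.506 to 2.14) and 1.46 times that at NFYC (0.864 to 2.40). The pair of histone-fold subunits, NFYB over NFYC, had a ratio of 1.35 (0.597 to 3.19). The intervals of these last 3 ratios reach beyond 2, so they do not show equal folds.

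Scaling of the libraries changed the direction at NFYA only. At ZHX1 and NFYC it changed whether the interval excluded 1. At ZHX2 and NFYB the interval lay above 1 under the authors' scaling and under all 4 others tried: the median promoter set to 1, reads at 52 peaks on unplaced contigs, the same without the strongest, and unscaled reads. The last 3 raise every fold by construction, and the first moves every log2 fold by only -0.012. None could thus lower a fold by much, so intervals that stay above 1 are no separate evidence. The fold at ZHX2 ranged from 2.13 to 4.59 and that at NFYB from 1.97 to 4.25. ZHX1 and NFYC had intervals above 1 under the last 3 of these scalings, with folds of 1.90 to 2.82 and 2.12 to 3.15. NFYA turned from 0.934 to above 1 under the same 3, at 1.35 to 2.00, and its interval included 1 throughout. The share of all listed peaks with a ratio above 1 was 81.9% without the strongest contig peak, 93.9% with the contig peaks and 95.5% with unscaled reads. The contig scalings divide each ratio of reads by 1.11, or by 1.48 without the strongest peak, beside 2.14 under the authors' scaling. The divisor thus depends on which contig peaks are used, and whether the 52 peaks are a neutral reference was not tested.

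**Figure D4:**
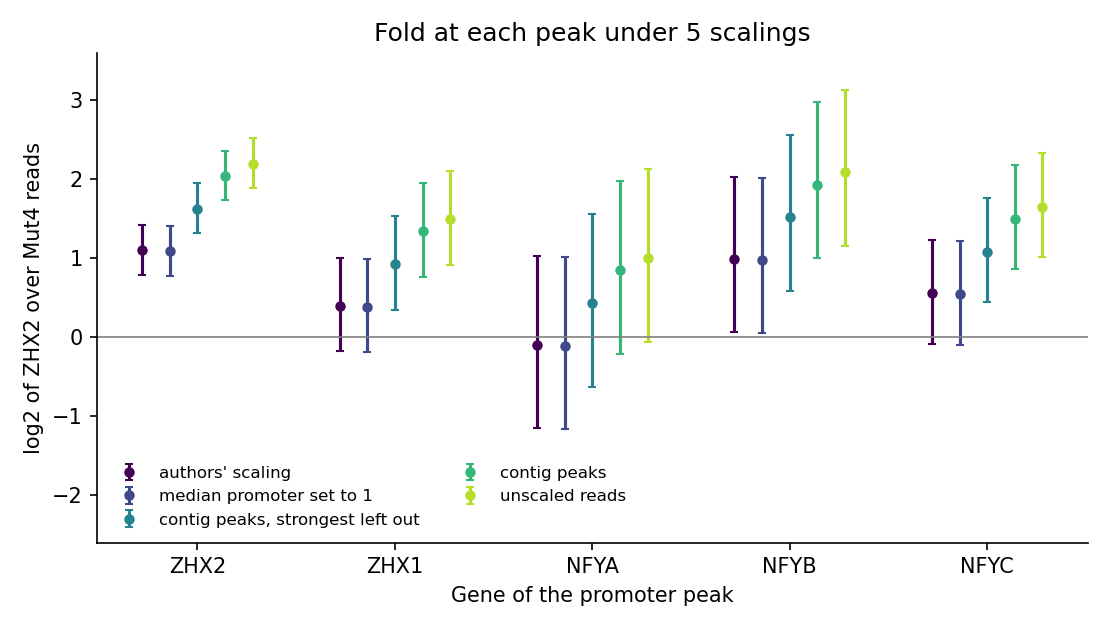
log2 of the ZHX2 over Mut4 ratio of reads at each of the 5 peaks under the authors' scaling and 4 others, with exact 95% counting intervals. ZHX2 and NFYB lie above 0 in every case, and NFYA has an interval that includes 0 in every case. The largest downward move of a log2 fold among these scalings is -0.012.

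Peaks of other genes resembled each of these closely. The likeness is the distance in the plane of deposited log2 fold and log2 CPM, over 2 libraries only, among promoter peaks. Those most like ZHX2 were ZC3H4 (453 and 112 reads, a fold of 1.89), ADNP-AS1 (496 and 92, 2.52) and SEPTIN7 (415 and 87, 2.23), at distances of 0.19 to 0.23. For NFYB the promoter peak of IQCK had the very same reads, 51 and 12, and FAM167A and ARVCF were within 0.067. The cloud is dense at the depth of NFYB and sparse at that of ZHX2.

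**Figure D5:**
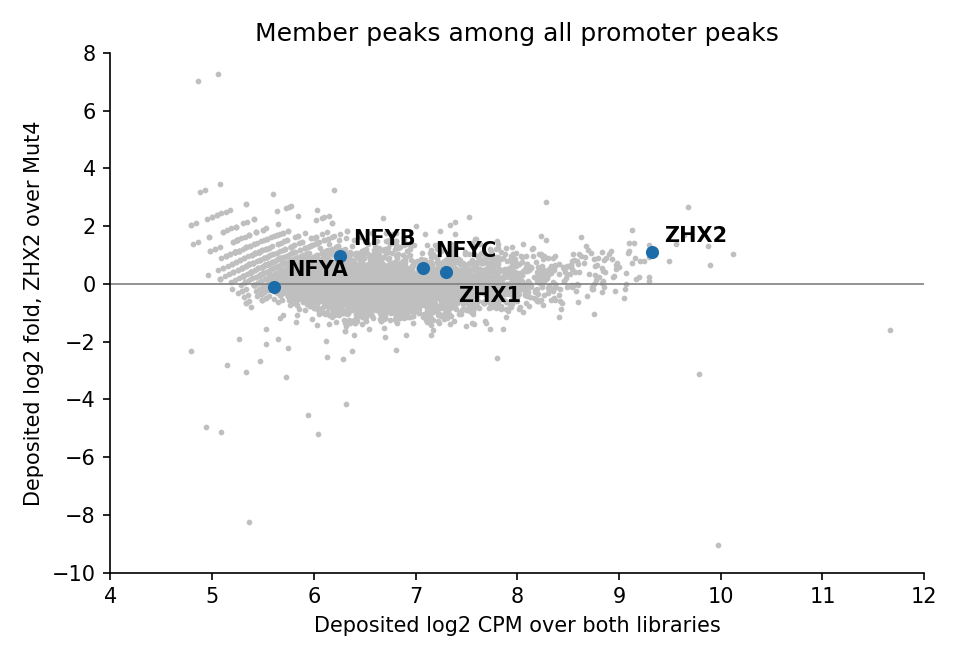
Deposited log2 fold (ZHX2 over Mut4) against deposited log2 CPM over both libraries for 5025 promoter peaks (grey), with the 5 member peaks in blue. ZHX2 lies at 9.32 log2 CPM in the sparse upper range with a log2 fold of 1.10, and the other 4 lie inside the dense cloud between -0.098 and 0.98.

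Genes of related function give a setting for the members. Of all 20056 RefSeq protein-coding genes 28.7% had a listed peak under their symbol, and 88.5% of those had exactly 1, as each of the 5 members did. Over 94 genes on 5 lists, 41 had a peak, 22 of them with a log2 fold above 0 under the authors' scaling and 19 below. The median was 0.022 on the log2 scale, beside 0.0046 over all listed peaks. The interval lay above 1 at 6 (14.6%) and below 1 at 3 (7.32%), beside 11.0% of all listed peaks in each direction. Under unscaled reads, and scaled to the contig peaks, all 41 were higher, as were 95.5% and 93.9% of all listed peaks. The scaled counts of the single lists below are to be read against these shares, and against 81.9% without the strongest contig peak.

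The other homeobox genes of the zinc-finger class are the nearest relatives of the ZHX genes on these lists. Of 11, 4 had a peak. The log2 fold was above 0 at 3 and below at 1 (median 0.30). ZEB2, a repressor of E-cadherin, had 78 and 13 reads, a fold of 2.80 (1.55 to 5.50) and, by the authors' deposited table, an adjusted p of 0.0320. Its paralog ZEB1 had 132 reads against 45 and a fold of 1.37 (0.970 to 1.97). TSHZ1 stood at 1.11 (0.566 to 2.32) and ADNP2 at 0.885 (0.494 to 1.63).

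Factors that work with NF-Y at promoters had peaks at 10 of 18 genes, with a log2 fold above 0 at 6 and below at 4 (median 0.034). USF2, which binds E-boxes, had 108 and 15 reads, a fold of 3.36 (1.95 to 6.21) and, by the authors' deposited table, an adjusted p of 0.00111, while its paralog USF1 had 136 reads against 62 and a fold of 1.02 (0.753 to 1.41). The CREB1 promoter, of a cyclic AMP response factor, had a fold of 2.59 (1.26 to 6.001). RFX5, a regulator of MHC class II genes, was lowest at 0.767 (0.378 to 1.61). With unscaled reads, and with either contig scaling, all 10 were higher, beside 95.5%, 93.9% and 81.9% of all listed peaks.

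Histone-fold relatives of NF-YB and NF-YC had peaks at 9 of 21 genes, with a log2 fold above 0 at 3 and below at 6 (median -0.30). TAF4, a subunit of the general factor TFIID, had 144 and 27 reads, a fold of 2.49 (1.64 to 3.91) and, by the authors' deposited table, an adjusted p of 0.00659. SUPT3H, of the SAGA coactivator, stood at 1.40 (0.691 to 3.07). CENPT, a centromere protein, had 67 reads against 51 and a fold of 0.614 (0.420 to 0.901), and TAF13 stood at 0.700 (0.385 to 1.30). The count of higher genes rose to 9 with unscaled reads and with the contig peaks, and to 8 without the strongest contig peak.

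Textbook targets of NF-Y had peaks at 7 of 25 genes. The log2 fold was above 0 at 4 of the 7 and below at 3 (median 0.14), and no interval excluded 1. The sterol genes FDFT1 and FDPS marked the ends at 1.36 (0.690 to 2.88) and 0.642 (0.398 to 1.05). The mitotic phosphatase gene CDC25B had a fold of 1.27 (0.793 to 2.10) and HMGCS1 0.899 (0.555 to 1.49). All 7 were higher with unscaled reads and with the contig peaks.

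Genes tied to ZHX2 in the literature had peaks at 13 of 21, with a log2 fold above 0 at 6 and below at 7 (median -0.049). KMT2A, a histone H3 lysine methyltransferase, led with 188 and 36 reads, a fold of 2.44 (1.70 to 3.59) and, by the authors' deposited table, an adjusted p of 0.00318. KDM2B followed at 1.31 (0.918 to 1.89). ELOC, a subunit of the VHL ligase, had 59 and 49 reads and the lowest fold, 0.562 (0.378 to 0.839), and the NF-kappaB subunit gene RELA stood at 0.652 (0.433 to 0.988). With unscaled reads and with the contig peaks all 13 were higher, and without the strongest contig peak 11 were.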

How the data were processed

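Chromatin of DB cells was precipitated with anti-ZHX2 and sequenced, per the labels' protocols. The submitters' processing notes list the build hg38 and, without saying what each did, HOMER, MACS2 2.2.6, BWA 0.7.17, Trim Galore 0.6.4, deepTools 3.4.3 and Picard 2.22.2-0. How peaks were called, and from which inputs, is not given in these sources. The authors' deposited table gives, per the file headers, a log2 fold, a log2 CPM and both a raw and an adjusted p-value per peak. A positive log2 fold means more signal in the ZHX2 arm. The spread behind the deposited p-values is not given there. Positions are those of the table, which does not state a counting base for starts. Distances to annotated starts are also the table's, and its starts can differ from those of RefSeq. Sequences and RefSeq positions are from GRCh38.p14. The deposited base positions (length, start, end and distance, other values) were made by the authors.

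Whole reads were recovered by solving each deposited pair of values, with priors of 0.25 reads in the fold and 2 in the CPM, a dispersion of 0.05, and a tolerance of 1e-09. This gave 8871 of 8871 peaks, with sizes of 541900 and 271694 times factors of 1.04 and 0.965. Folds are relative to reads in listed peaks, so any shift common to most peaks is removed. Intervals are exact (Clopper-Pearson, Poisson, or conditional for ratios of folds), from scipy 1.17.1. Intervals cover counting error only, since each arm had 1 ChIP library. Reads without molecular identifiers may come from the same molecule, which would make these intervals too narrow. The steps were tested on simulated data. Columns of per-sample values left out numbered 0.

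Named genes follow a rule: every member peak, neighbours within 100 kb, the 3 most like promoter peaks per member (named for ZHX2 and NFYB), and up to 4 genes per list with the largest and smallest folds. USF1, FBXO32, SNTB1 and CHD6 were named after their values were seen, and E2F1 was left out. The members and lists were chosen with earlier results of these data known. The ratios of folds and the comparison with peaks within 2.5 Mb were added after seeing the data. Alternatives were 4 other scalings, other peak choices, and peaks within 10 kb of a member gene.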

Additional observations from a re-analysis of the deposited data

How the results depend on the processing

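Of the 5 member peaks, 4 were higher by sign in the authors' table, 4 with the median promoter set to 1, and 5 with unscaled reads and with either contig scaling. Counting only peaks whose interval excludes 1 gave 2. Among the 7 listed peaks within 10 kb of a member gene 4 were higher. The fold at ZHX2 was 2.14 as deposited, 2.13 with the median promoter set to 1, 4.59 with unscaled reads, 4.13 with the contig peaks and 3.09 without the strongest of these. Of the 41 list genes with a peak 22 were higher as deposited, 41 with unscaled reads, 41 with the contig peaks and 37 without the strongest. The shifts under these 3 scalings follow from their construction, which moves every log2 fold by 1.10, 0.95 or 0.53. Over promoter peaks only, 20 of 33 list genes were higher. All listed promoter peaks had a median log2 fold of 0.0125, so they split nearly evenly. Whether the list genes differ from them was not tested. At NFYA, with 24 and 12 reads, depth limits what can be seen. No paired analysis was possible because each arm had 1 ChIP library, and no replicate could be left out.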
